A study of Mus musculus with 6 samples.

Results

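The integrated stress response is the programme by which a cell under stress slows general protein synthesis and switches on a set of rescue and death genes. Stress kinases phosphorylate the translation factor eIF2, most messages are then translated less, and the message of the transcription factor ATF4 is translated more. ATF4 in turn switches on further regulators, among them Ddit3, which encodes CHOP, a factor linked to cell death under prolonged stress of the endoplasmic reticulum. Described here are 10 such genes: the transcription factor genes Atf4, Ddit3, Atf3, Atf5 and Cebpg, the cofactor gene Nupr1, the feedback regulators Trib3 and Ppp1r15a, and the effectors Chac1 and Sesn2. All probe sets on the array whose sole annotated symbol was one of these genes were taken, 18 of 45037, and 16 of the 18 lay above the brightness limit of 497.8 signal units, the median of all probe sets. The 10 genes, out of 18193 on the array, were selected on the group difference itself, because several of them read higher in the Scap-deleted arrays, so their group differences are given as a description without a test.

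The samples were whole mouse lungs at E18.5, shortly before birth, profiled on MOE430 V2 arrays. In 3 of them (Scap_ko) respiratory epithelial cells lacked Scap (genotype Scap d/d), and 3 were controls (Scap_control), all on a mixed background of FVB/N and B6. Scap encodes the escort protein that lets the SREBP factors leave the endoplasmic reticulum to be activated as regulators of sterol and fatty acid synthesis. The driver of the deletion, the genotype of the controls beyond that word, and whether each array is a separate animal are not given in the sources used here, so the spread between arrays may be technical.

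Signals are the authors' linear values, scaled so that the trimmed means of the arrays were alike, and each log2 difference subtracts the control from the Scap-deleted mean. Its standard error (SE) comes from a limma fit of all 22519 probe sets above the limit. For a probe set below the limit it comes from a fit of all 45037. Scap itself read 1847, 3286 and 2702 in the Scap-deleted lungs, against 7264, 4195 and 3080 in controls (log2 difference -0.84, SE 0.34). The exact two-sided permutation p was 0.2, where 3 against 3 arrays allow no less than 0.1. This probe set was lower in Scap-deleted lungs in each pair of arrays of the same number but with overlap between the groups. A Scap probe set dimmer than the limit read 221.1, 325.2 and 169.5 in Scap-deleted lungs, against 587.1, 648.4 and 74 in controls. Its log2 difference was -0.40 (SE 0.92, exact permutation p = 0.8), and it ran the other way in the arrays numbered 3. At an adjusted p of 0.05 limma called 0 probe sets in either direction (0%), with 586 higher (2.6%) and 594 lower (2.64%) at an unadjusted p of 0.05. With 1 probe set per gene it called 1 of 10972 genes higher (0.00911%), Acox2 of peroxisomal fat breakdown, and 0 lower, and with the array number as a block besides it called 0 (adjusted p = 0.118 for Acox2). Across all probe sets the arrays numbered 3 of both groups stood apart on the first principal component, 36.2% of the variance, and the groups separated on the next, 21.3%. Whole lung is a mixture in which fewer cells of a type and less RNA per cell cannot be told apart. All 13 lung epithelial markers lay above the brightness limit, and their summed signal was 279777 to 301970 in Scap-deleted lungs and 292649 to 339317 in controls. The 7 endothelial markers summed to 68372 to 76076 in Scap-deleted lungs and 75069 to 84915 in controls, and the 9 leukocyte markers, 8 of them above the limit, to 48325 to 66730 in Scap-deleted lungs and 68334 to 83850 in controls. These sums add signals of different probe sets, so the brightest weigh most, and the leukocyte sum moves with Lyz2, a lysozyme gene also used by alveolar type II cells (log2 difference -0.79, SE 0.19, limma adjusted p = 0.753). Taken gene by gene, 6 of the 8 tested leukocyte markers had positive log2 differences, with a median of 0.12. The 13 epithelial markers were split, with 8 positive and 5 negative differences and a median of 0.04. At an unadjusted limma p of 0.05, 1 of the 13 was higher and 4 were lower, where all genes gave 2.88% and 3.04%. Fibroblast and smooth muscle markers, 8 of 8 above the limit, summed to 231700 to 242732 in Scap-deleted lungs and 204102 to 250543 in controls, and muscle markers, 5 of 8 above it, to 19130 to 40082 in Scap-deleted lungs and 19598 to 23265 in controls. The erythroid markers, 1 of 2 above it, summed to 10328 to 14053 in Scap-deleted lungs and 13020 to 16388 in controls. No marker read 0. The part of cell makeup in the differences below was not tested.

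The promoters are shown because the ATF4 branch has a recognisable address in the DNA. ATF4 pairs with C/EBP proteins on a composite element whose core reads TGATGNAA, and the ER stress element is the address used by the ATF6 and XBP1 branches. Sequences from 250 bases before to 30 bases after each annotated start were read from RefSeq on GRCm38.p6, and all 10 genes matched, Atf5 with both of its starts. Both strands were searched. The composite core was present in 4 of the 10 genes, against 4.32% of all 27025 genes with a promoter, and in 3 of the 4 (Atf3, Chac1 and Nupr1) it had the same letters, TGATGCAA, read on the opposite strand as TTGCATCA. Trib3 carried TGATGTAA, read as TTACATCA, at positions 15 to 22 after its start. The cAMP response element TGACGTCA, a site for CREB and ATF proteins, was present in Ppp1r15a, 12 to 5 bases before the start, and in 1.99% of all genes. Windows with a match are printed 5′ to 3′ on the strand of the gene, with the match in capitals, and no window held matches to more than 1 motif.

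Atf3 chr1:191183304-191183583 minus strand: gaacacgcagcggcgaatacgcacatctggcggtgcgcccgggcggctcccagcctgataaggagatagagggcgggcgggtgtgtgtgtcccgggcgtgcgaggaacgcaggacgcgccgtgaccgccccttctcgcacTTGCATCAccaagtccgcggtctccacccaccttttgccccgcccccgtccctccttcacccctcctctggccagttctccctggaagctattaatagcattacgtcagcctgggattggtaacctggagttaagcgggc
Chac1 chr2:119350992-119351271 plus strand: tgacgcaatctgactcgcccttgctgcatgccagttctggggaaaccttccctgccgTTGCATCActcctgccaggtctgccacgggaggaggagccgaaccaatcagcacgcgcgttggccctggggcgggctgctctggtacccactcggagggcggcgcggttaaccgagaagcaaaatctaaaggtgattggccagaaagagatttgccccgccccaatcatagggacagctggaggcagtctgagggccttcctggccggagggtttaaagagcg
Nupr1 chr7:126625441-126625720 minus strand: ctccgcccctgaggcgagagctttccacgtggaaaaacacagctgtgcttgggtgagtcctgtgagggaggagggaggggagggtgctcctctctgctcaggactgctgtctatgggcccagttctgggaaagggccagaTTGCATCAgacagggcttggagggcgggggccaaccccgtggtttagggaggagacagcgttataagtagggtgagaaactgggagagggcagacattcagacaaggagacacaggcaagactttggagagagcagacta
Trib3 chr2:152344031-152344310 minus strand: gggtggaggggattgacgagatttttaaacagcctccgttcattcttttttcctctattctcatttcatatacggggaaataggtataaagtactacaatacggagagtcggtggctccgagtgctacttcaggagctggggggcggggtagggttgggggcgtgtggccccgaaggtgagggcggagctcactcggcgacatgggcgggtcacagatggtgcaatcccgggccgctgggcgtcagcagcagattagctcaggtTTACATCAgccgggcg
Ppp1r15a chr7:45526239-45526518 minus strand: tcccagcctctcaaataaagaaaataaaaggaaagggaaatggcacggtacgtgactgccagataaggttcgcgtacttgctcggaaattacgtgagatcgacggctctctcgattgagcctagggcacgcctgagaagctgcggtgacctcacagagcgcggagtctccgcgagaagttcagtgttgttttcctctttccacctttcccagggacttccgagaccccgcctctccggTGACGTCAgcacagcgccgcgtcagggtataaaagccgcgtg

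In Atf3 and Nupr1 the matched core began 110 bases before the start, and in Chac1 193 bases before it. None of these letters stood in the windows of Ddit3, Atf4, Atf5, Sesn2 and Cebpg, which says nothing of sites outside them. Neither the ER stress element (0.133% of all genes) nor a sterol regulatory element core, TCACNCCAC (1.37%), was found in any of the 10. The endoplasmic reticulum chaperone and XBP1 or ATF6 genes showed the other arrangement: 8 of 18 with a promoter held the ER stress element and 0 of 18 the composite core. Of the 10 genes, the 4 with the composite core had log2 differences of 0.57 to 1.05 and the 6 without it 0.02 to 0.80, so the ranges overlapped.

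**Figure D1:**
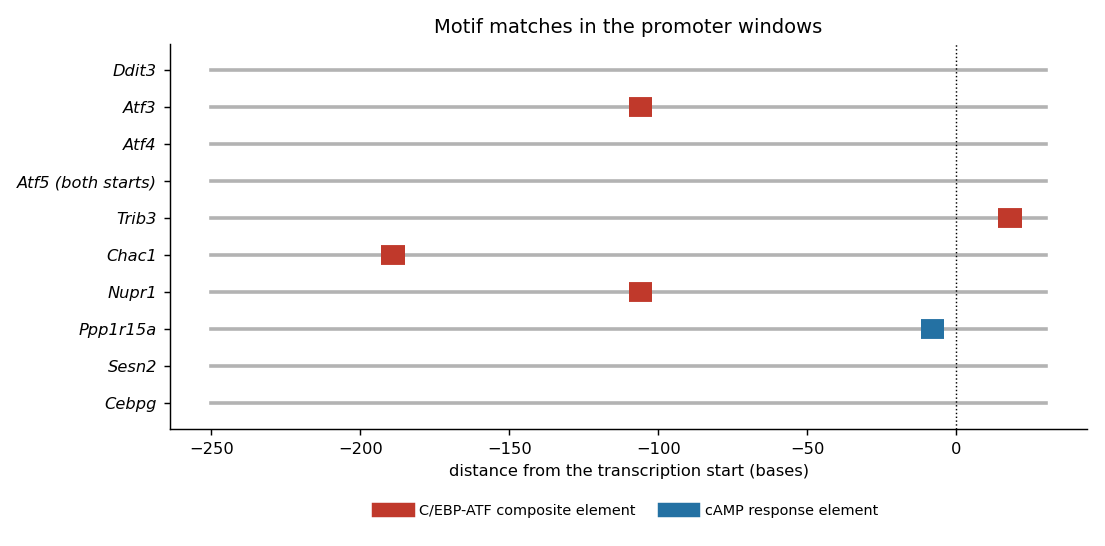
Each line is the promoter window of 1 gene, from 250 bases before to 30 bases after the transcription start (dotted line), with boxes where the letters of the C/EBP-ATF composite element (red) or the cAMP response element (blue) were found on either strand. Composite cores stand at the same distance in Atf3 and Nupr1, farther upstream in Chac1 and just past the start in Trib3.

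Since the regulators were picked because several read higher in Scap-deleted lungs, their values describe the choice and are no result for the set. The brightest probe set of all 10 genes had a positive log2 difference, with a median of 0.66, or 157.5% of control, beside a median of 0.01 over all probe sets tested. The differences of Ppp1r15a (0.13, SE 0.16), Cebpg (0.06, SE 0.12) and Sesn2 (0.02, SE 0.65) were smaller than their SE. In 6 genes (Ddit3, Atf3, Atf4, Atf5, Trib3 and Chac1) every Scap-deleted array read above every control array, as did 5.3% of all probe sets tested, against 5.23% in which every Scap-deleted array read lower. Taken as 1 probe set per gene those shares were 6.11% and 5.72%. That contrast chose the genes, so nothing is read from the count. It was 9 without control array 3, but with fewer arrays a count of this kind can only stay or rise. Arrays of both groups carry the numbers 1 to 3, and 8 of the 10 genes read higher in the Scap-deleted array of every pair of the same number, as did 16.3% of all probe sets, against 14.2% lower in every pair.

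**Figure D2:**
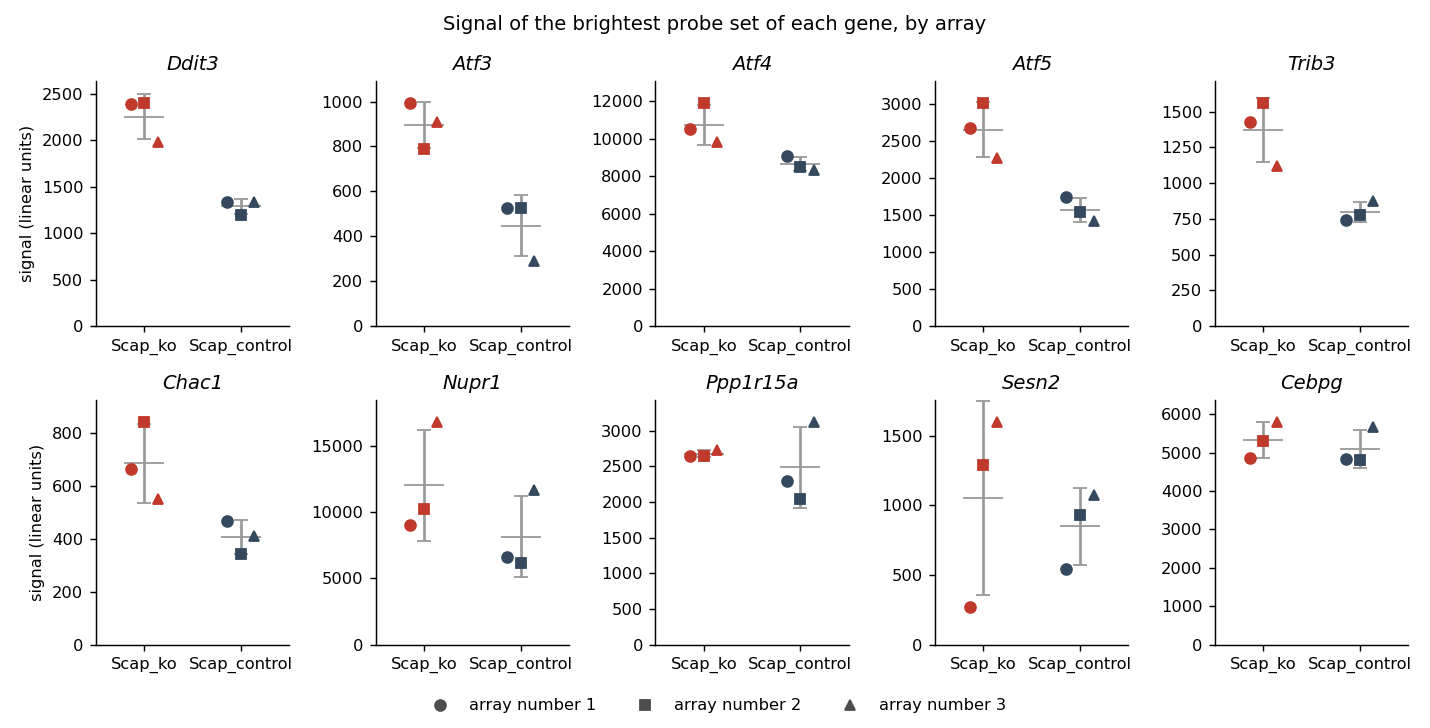
Signal in linear units on each array for the brightest probe set of each gene, Scap_ko at the left and Scap_control at the right, with symbols for the array number and grey bars for the mean ± SD (n = 3 arrays per group). The groups do not overlap for Ddit3, Atf3, Atf4, Atf5, Trib3 and Chac1, and they overlap for Nupr1, Ppp1r15a, Sesn2 and Cebpg.

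Ddit3 encodes CHOP, a bZIP factor that pairs with C/EBP proteins and that ATF4 induces. Its brightest probe set read 2393, 2401 and 1979 in Scap-deleted lungs, against 1337, 1193 and 1337 in control lungs. The lowest Scap-deleted array was thus well above the highest control. The means were 2258 ± 241 in Scap-deleted and 1289 ± 83.0 in control lungs (SD, n = 3 each), a log2 difference of 0.80 (SE 0.12). Within pairs of the same number the log2 difference was 0.84, 1.01 and 0.57. The other Ddit3 probe set, dimmer than the limit, read 529.3, 545.2 and 404.7 in Scap-deleted lungs, against 272.8, 298.3 and 129.7 in controls. It showed the same arrangement with no overlap, and a log2 difference of 1.16 (SE 0.36).

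Atf3, a repressor and activator that stress switches on quickly and that acts below ATF4, had the largest difference among the brightest probe sets of the 10. It read 992, 787.3 and 910.3 in Scap-deleted lungs, against 525.6, 525.8 and 289.7 in controls, so that control array 3 stood apart on the low side. The log2 difference was 1.05 (SE 0.24), or 207.1% of control. Between pairs it varied widely, from 0.58 for the arrays numbered 2 to 1.65 for those numbered 3, and without both arrays numbered 3 it was 0.75.

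Atf4 itself, the factor at the head of the branch, is controlled mostly through translation, so its transcript measures only part of its activity. The brightest of its 3 probe sets read 10521, 11902 and 9812 in Scap-deleted lungs, against 9092, 8524 and 8364 in controls. Groups were separate but close, with a log2 difference of 0.31 (SE 0.11), or 123.8% of control. An x-type probe set, a design that can bind other transcripts too, read 3687, 4045 and 3509 in Scap-deleted lungs, against 3096, 4286 and 2267 in controls. Here the highest control exceeded every Scap-deleted array, and the log2 difference was 0.27 (SE 0.22). The remaining probe set was near the bottom of the scale, at 16.8 to 21.7 in Scap-deleted lungs and 9.1 to 31.6 in controls, where differences are not readable.

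Atf5, a relative of Atf4 whose message is likewise translated more under stress and which ATF4 and CHOP induce, had 1 probe set. It read 2674, 3007 and 2273 in Scap-deleted lungs, against 1742, 1543 and 1417 in controls. Every Scap-deleted array read above every control, with a log2 difference of 0.75 (SE 0.14) and pair differences of 0.62, 0.96 and 0.68. Cebpg, a C/EBP protein that pairs with ATF4 on the composite element, showed no such gap on any of its 3 probe sets. The brightest read 4864, 5302 and 5808 in Scap-deleted lungs, against 4826, 4817 and 5672 in controls. Both groups covered nearly the same range, with a log2 difference of 0.06 (SE 0.12) that became -0.00 without Scap-deleted array 3. Its other probe sets had log2 differences of 0.17 (SE 0.13) and 0.08 (SE 0.17), also with overlap.

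Trib3 encodes a pseudokinase that binds ATF4 and damps it, and it is itself induced by ATF4 and CHOP. Both of its probe sets showed the groups apart. The brighter, an x-type, read 1426, 1558 and 1123 in Scap-deleted lungs, against 738.9, 776 and 877.8 in controls, a log2 difference of 0.77 (SE 0.15). The other read 1181, 1322 and 1141 in Scap-deleted lungs, against 828.8, 659.4 and 838.5 in controls, a log2 difference of 0.65 (SE 0.13). On both, the arrays numbered 3 gave the smallest pair difference, 0.36 and 0.44.

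Ppp1r15a encodes GADD34, which brings a phosphatase to eIF2 and so ends the response. It read 2651, 2651 and 2732 in Scap-deleted lungs, against 2301, 2042 and 3127 in controls. The Scap-deleted arrays were nearly identical and lay inside the control range, the highest reading being control array 3. The log2 difference was 0.13 (SE 0.16), 0.30 without control array 3 and -0.00 without control array 2.

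Among the effectors, Chac1 encodes an enzyme that breaks down glutathione and is a sensitive target of ATF4. It read 662.7, 842.4 and 549.1 in Scap-deleted lungs, against 467.1, 341.6 and 411.7 in controls. No array overlapped, and the log2 difference was 0.74 (SE 0.19). All 3 Scap-deleted arrays lay above the brightness limit and all 3 controls below it, so Chac1 passed that limit only through the group in which it was high. Scap-deleted array 2 was the highest: its pair difference was 1.30, against 0.50 and 0.42 for the other pairs, and the difference was 0.58 without that array.

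Sesn2, a leucine sensor that restrains mTORC1 and is induced by both ATF4 and p53, gave no readable direction. Its brighter probe set read 270.7, 1290 and 1602 in Scap-deleted lungs, against 541.1, 929 and 1078 in controls. Scap-deleted array 1 was the lowest of all 6, and the log2 difference of 0.02 (SE 0.65) ran from -0.46 without Scap-deleted array 3 to 0.82 without Scap-deleted array 1. The other probe set read 767.3, 650.9 and 840 in Scap-deleted lungs, against 444.1, 486.1 and 853.4 in controls. Control array 3 was the highest there, and the log2 difference was 0.40 (SE 0.25).

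Nupr1, a small stress-induced protein that works as a cofactor in the nucleus, overlapped between the groups but not within pairs. It read 8999, 10204 and 16795 in Scap-deleted lungs, against 6625, 6116 and 11648 in controls. Array 3 was far the highest in either group, and its control reading exceeded the other Scap-deleted arrays. Pair by pair the log2 difference was 0.44, 0.74 and 0.53. The mean log2 difference was 0.57, with an SE of 0.31 without and 0.11 with the array number as a block. Leaving out Scap-deleted array 3 alone gave 0.30 and leaving out control array 3 alone gave 0.86. The other probe set, an x-type, repeated this picture, with pair differences of 0.52, 0.89 and 0.44. On the same arrays the mean log2 level of the 8 tested leukocyte markers, relative to control means, was -0.08, -0.13 and 0.23 in Scap-deleted lungs. In controls it was 0.05, -0.14 and 0.09, again highest in array 3 of each group. This was not particular to leukocyte markers. The means of the heat shock genes and of the bZIP factors described below were also highest in array 3 of each group. The part of leukocytes in the Nupr1 readings was not tested.

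**Figure D3:**
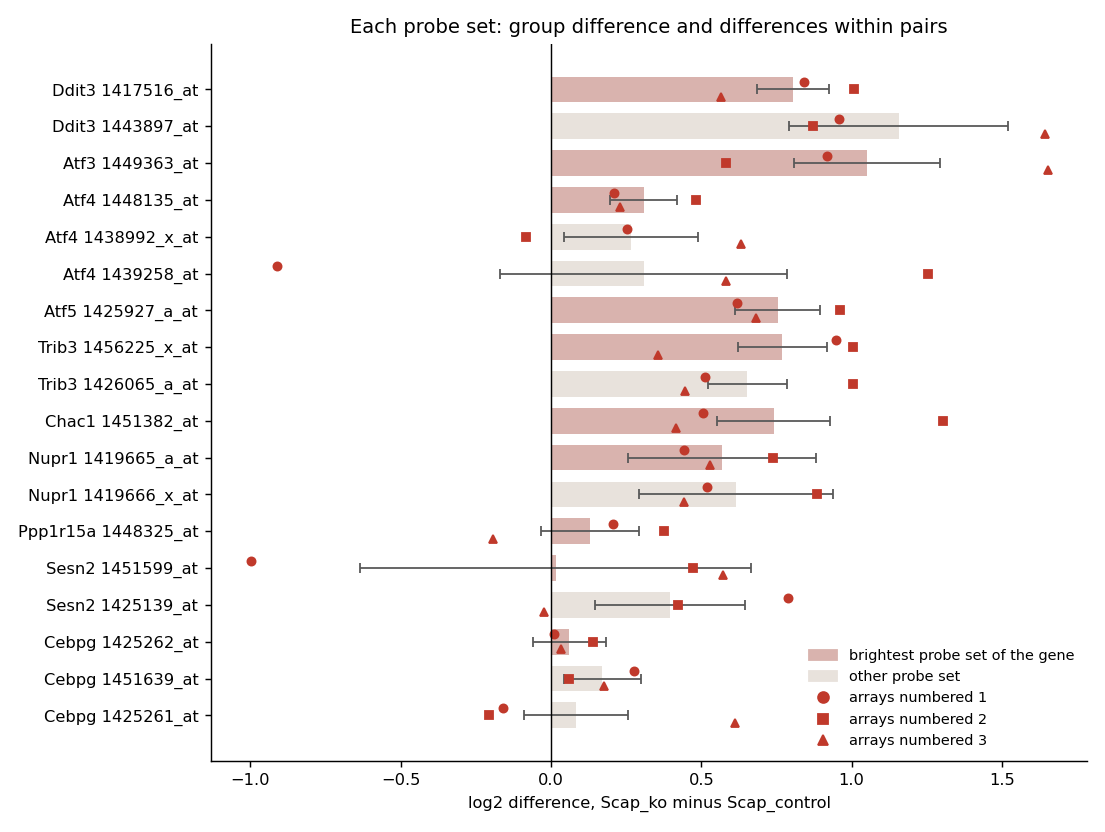
Bars give the log2 difference, Scap_ko minus Scap_control, of each of the 18 probe sets with the limma SE (n = 3 arrays per group), and symbols give the difference within each pair of arrays of the same number. All 18 bars are positive, and all 3 pair symbols lie right of 0 for 12 of them, among them both probe sets of Ddit3, Trib3 and Nupr1.

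Within the Scap-deleted group the genes showed 2 main orders of the arrays, a pattern noticed in the values. Array 2 was highest and array 3 lowest for Ddit3, Atf4, Atf5, Trib3 and Chac1, 5 of the 10, against 18.0% of all probe sets tested. Array 3 was highest and array 1 lowest for Nupr1, Ppp1r15a, Sesn2 and Cebpg, 4 of the 10, against 17.4%, although for Ppp1r15a arrays 1 and 2 differed by less than 1 signal unit. Atf3 followed neither, with array 1 highest and array 2 lowest.

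Genes whose signal over the 6 arrays was most like that of Ddit3 were sought among 10971 others. The closest 5 by Pearson r were Serp1, which protects membrane proteins under stress in the endoplasmic reticulum (0.998), Sec61b, a subunit of the channel into that compartment (0.995), Cdk9, a kinase of transcription elongation (0.994), Clic3, a chloride channel family member (0.992), and Hspa9, a mitochondrial chaperone (0.989). With 6 arrays in 2 groups a gene can score high merely by separating the groups, and 41 genes passed 0.95. The differences of the closest 5 were smaller than that of Ddit3. Serp1 read 12209, 12257 and 11573 in Scap-deleted lungs, against 10279, 10098 and 10300 in controls, a log2 difference of 0.23 (SE 0.09). Of the regulators, Trib3 (0.97), Atf5 (0.96), Chac1 (0.94) and Atf4 (0.92) were close to Ddit3, Atf3 was at 0.80, and Nupr1, Ppp1r15a, Cebpg and Sesn2 were at 0.48, 0.39, 0.18 and -0.13.

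Upstream of the regulators, the brightest probe sets of the kinases that start the response had log2 differences of -0.15 to -0.01. Eif2ak3, or PERK, the kinase that senses the endoplasmic reticulum, read 2699, 2796 and 2888 in Scap-deleted lungs, against 2787, 2755 and 2904 in controls. Eif2ak4, the amino acid sensing kinase GCN2, had a log2 difference of -0.15 (SE 0.12), but its other tested probe set ran the other way, at 0.43 (SE 0.28), and was higher in each pair. The brightest probe sets of Eif2ak1 and Eif2ak2 stood at -0.07 (SE 0.14) and -0.01 (SE 0.18), and their other probe sets at -0.07 to 0.36 and at 0.14 to 0.20. Ppp1r15b, the constitutive counterpart of Ppp1r15a, stood at -0.04 (SE 0.13). Of 18 tested genes of the eIF2 kinases and eIF2 machinery limma called 0 in either direction over all probe sets and 0 at an unadjusted p of 0.05, and 12 had positive differences, with a median of 0.04. The smallest p belonged to Nck1, an adaptor that binds the eIF2 phosphatase (0.27, SE 0.16; adjusted p = 0.947; 0.66, SE 0.27, on its other probe set), and Impact, an inhibitor of GCN2 (0.27, SE 0.18; adjusted p = 0.954; 0.54, SE 0.34, on its other probe set). These kinases are switched on by phosphorylation, which arrays do not measure.

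Downstream, the brightest probe sets of the wider set of known ATF4 and CHOP targets had small differences on the whole. Limma called 0 of 29 tested targets in either direction (smallest adjusted p = 0.741), against 4 higher and 0 lower at an unadjusted p of 0.05, where all genes gave 2.88% higher and 3.04% lower. Of the 29, 21 had positive differences, and the median was 0.06, or 104.3% of control. With the array number as a block the unadjusted counts were 5 higher and 1 lower, and 0 were called. Groups separated upward in 5 of the 29, Phgdh, Slc7a1, Mthfd2, Gpt2 and Xpot, as they did in 6.11% of all genes, and downward in 1, against 5.72%. Bbc3, a gene for a protein that promotes cell death, was that 1 (-0.16, SE 0.10, adjusted p = 0.954).

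Phgdh, the first enzyme of serine synthesis, read 2027, 2518 and 2137 in Scap-deleted lungs, against 1329, 1301 and 1647 in controls (log2 difference 0.65, SE 0.14, limma adjusted p = 0.741). Slc7a1, an importer of arginine and lysine, read 2648, 2842 and 2147 in Scap-deleted lungs, against 1366, 1695 and 1821 in controls (0.65, SE 0.16, adjusted p = 0.763). In both the lowest Scap-deleted array was above the highest control. Other tested probe sets of Phgdh stood at 0.51 to 1.02 with the groups separate upward, and a further one of Slc7a1 at 0.48 with overlap. Mthfd2, a mitochondrial enzyme of one-carbon metabolism, stood at 0.79 (SE 0.27, adjusted p = 0.913). A further tested probe set of Mthfd2 stood at 1.098 (SE 0.19) with the groups separate upward. Its controls read 399.2, 363.7 and 368.3, below the brightness limit, and its Scap-deleted arrays lay above it. That probe set thus entered the test only through the group in which it was high. Asns, asparagine synthetase, stood at 0.70 (SE 0.29, adjusted p = 0.938), and at 0.51 (SE 0.25) on a further tested probe set with overlap. Gpt2, a mitochondrial alanine transaminase, stood at 0.25 (SE 0.11, adjusted p = 0.940). The probe sets of Gpt2 disagreed: of its other 2, 1 read 0.48 (SE 0.13) with the groups separate upward and 1 read -0.45 (SE 0.16) with the groups separate downward. Slc1a4, a carrier of serine and alanine, ran the other way at -0.38 (SE 0.19, adjusted p = 0.940), and at -0.28 and -0.18 on its other probe sets. Many others, such as Psat1 (0.03), Ddit4 (0.07), Herpud1 (0.03) and Eif4ebp1 (0.00), had log2 differences near 0 on their brightest probe sets. Other tested probe sets stood at 0.17 for Herpud1 and at 0.06 and 0.22 for Eif4ebp1. Of the 6 tested targets with the composite core in the promoter window, Asns, Herpud1, Jdp2, Pck2, Slc1a4 and Vldlr, 3 had positive differences, and of the 19 without it 16 did.

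The tRNA synthetases, enzymes that charge tRNAs and that ATF4 also induces, had positive differences in 12 of 13, with a median of 0.14. None was called by limma, and 0 passed an unadjusted p of 0.05. Groups separated upward in 2 (6.11% of all genes) and downward in 0 (5.72%). Aars, the alanine enzyme, read 3532, 5354 and 3387 in Scap-deleted lungs, against 3067, 2729 and 3107 in controls (log2 difference 0.43, SE 0.19, adjusted p = 0.940), with Scap-deleted array 2 the highest. A further tested probe set of Aars stood at 0.19 (SE 0.12) with overlap, and ran the other way in the arrays numbered 1. Cars, the cysteine enzyme, stood at 0.20 (SE 0.10, adjusted p = 0.940). The composite core was present in 5 of the 8 with a promoter, Aars, Gars, Iars, Tars and Yars, with differences of 0.08 to 0.43.

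The neighbouring branch of the unfolded protein response, with chaperones, XBP1 and ATF6, had positive differences on the brightest probe set of all 22 tested genes. Of all genes tested, 51.7% had a positive difference. Other tested probe sets of Xbp1 ran the other way, at -0.13 to -0.02, against 0.07 on the brightest. A further probe set of Canx stood at -0.05. Limma called 0 of 22 (smallest adjusted p = 0.421), with 5 higher and 0 lower at an unadjusted p of 0.05 (2.88% and 3.04% of all genes), and groups separated upward in 6 (6.11% of all genes). Derl3, a channel component for disposal of misfolded proteins, had 1084, 866.7 and 1211 in Scap-deleted lungs, against 245.3, 196.6 and 406.6 in controls. All 3 of its controls lay below the brightness limit and all 3 Scap-deleted arrays above it, so it entered the test only through the group in which it was high, and its fitted log2 difference of 1.95 (SE 0.27) rests on dim control readings. Creld2, a chaperone-like secretory protein, stood at 0.39 (SE 0.10, adjusted p = 0.791). The median of the list was 0.13, beside 0.66 for the 10 regulators, which had been picked for their size.

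Other stress programmes that share Atf3, Ppp1r15a or Sesn2 were set beside them. The immediate early genes, which handling of tissue can induce together with Atf3, had 10 positive and 7 negative differences of 17 tested, with a median of 0.02. Limma called 0 of them, with 0 higher and 1 lower at an unadjusted p of 0.05. Groups separated upward in 0 (6.11% of all genes) and downward in 2 (5.72%). Ccn1 stood at -0.38 (SE 0.14, adjusted p = 0.913) and Fos at 0.25 (SE 0.12, adjusted p = 0.940). Of 10 tested p53 targets limma called 0, with 1 higher and 0 lower at an unadjusted p of 0.05. Their median was 0.10, and 2 were higher with the array number as a block. Groups separated upward in 2 of the p53 targets and downward in 1, beside the same shares of all genes. Cdkn1a, the cell cycle inhibitor p21, read 3241, 4151 and 5015 in Scap-deleted lungs, against 2616, 2465 and 2975 in controls (0.60, SE 0.17, adjusted p = 0.864), and Ccng1 stood at 0.30 (SE 0.14, adjusted p = 0.940).

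Of 11 heat shock genes, mostly of the cytosol but with the mitochondrial chaperonins Hspe1 and Hspd1 among them, 9 had positive differences. Their median was 0.11, and limma called 0, with 1 higher at an unadjusted p of 0.05. Groups separated upward in 3 (6.11% of all genes) and downward in 0 (5.72%). Hspe1 stood at 0.30 (SE 0.10, adjusted p = 0.913) and Hsp90aa1 at 0.26 (SE 0.13, adjusted p = 0.940). Among 14 bZIP factors that can pair with CHOP or the ATF proteins, limma called 0, with 0 at an unadjusted p of 0.05. With the array number as a block, 0 were higher and 1 lower at that p. Of the 14, 10 had positive and 4 negative differences, with a median of 0.07. Their groups separated upward in 1 and downward in 0. Cebpa, a C/EBP factor of the lung epithelium, read 8966, 9010 and 12312 in Scap-deleted lungs, against 12452, 11416 and 14243 in controls, which is -0.34 on the log2 scale (SE 0.16, adjusted p = 0.940), with array 3 highest in both groups.

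As measured on each array, the 10 regulators had a mean log2 level, relative to the control mean of each gene, of 0.34, 0.64 and 0.58 in Scap-deleted lungs, against -0.03, -0.06 and 0.10 in controls. The lowest of the Scap-deleted arrays, array 1, is the one in which Sesn2 was low. The other ATF4 and CHOP targets had 0.13, 0.16 and 0.09 in Scap-deleted lungs, against -0.00, -0.07 and 0.07 in controls. For the chaperone branch the means were 0.28, 0.30 and 0.23 in Scap-deleted lungs, against -0.04, -0.05 and 0.10 in controls.

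**Figure D4:**
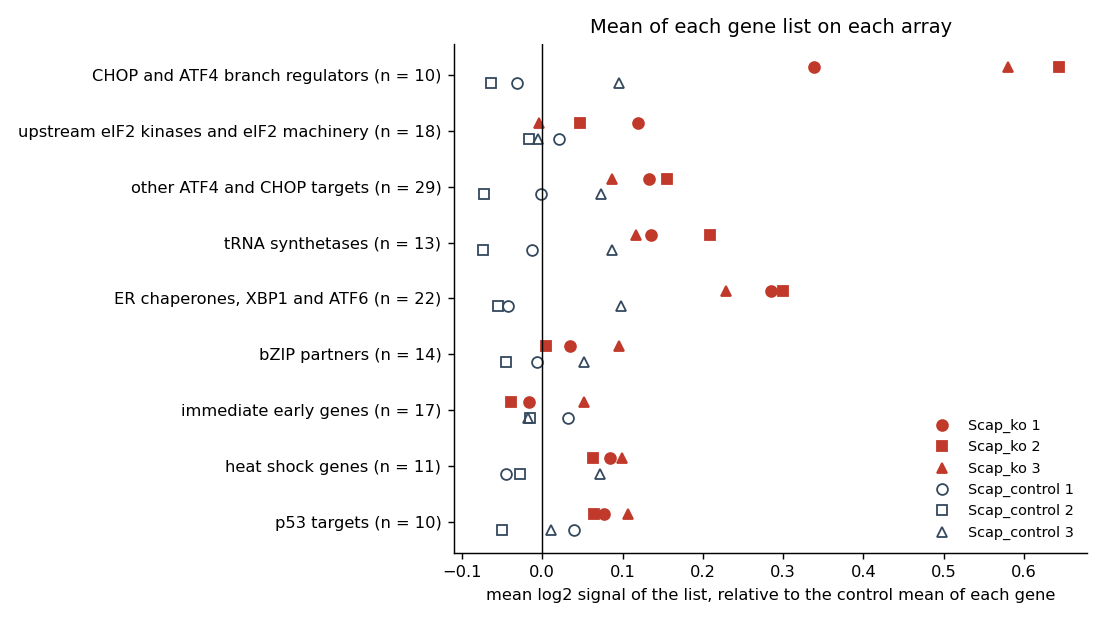
Mean log2 signal of each gene list on each array, relative to the mean of the 3 control arrays for each gene, with Scap_ko as filled symbols above and Scap_control as open symbols below, and n the number of genes. The regulators and the chaperone branch show Scap_ko arrays farthest to the right. The eIF2 machinery, bZIP partners, immediate early genes and heat shock genes overlap between the groups.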

How the data were processed

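The authors deposited 1 table of linear intensity values for 45101 probe sets on 6 arrays. RMA is the tool listed in the submitters' processing notes, yet the values are linear, not quantile normalized, and share a trimmed mean of 1500. Which software did the scaling and background step is unknown here. The log2 of the deposited intensity was taken without a pseudocount, which makes dim values noisy, and no detection calls were used. After 64 control probe sets were left out, of 45037 probe sets the platform annotation gave 1 gene symbol to 34945, more than 1 to 932 and none to 9160. Probe sets with a mean log2 at or above the median were fitted without covariates in R 4.3.3 (limma 3.58.1, functions lmFit and eBayes), and p-values were adjusted by Benjamini-Hochberg over all 22519. The probe set of highest mean log2 stood for its gene. Marker sums add linear signals over probe sets and are weighted to the brightest. The fit was tested on simulated data.

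The 10 genes and the 14 comparison lists, with 197 memberships of which 187 were on the array and 176 tested, were chosen with earlier results of these data known. List genes were named by smallest unadjusted p: 6 from the other ATF4 and CHOP targets and 2 from each other list that is not a marker list; others were named after their values were seen. Symbols were matched through Entrez IDs of GRCm38.p6.

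Deviations from group means correlated at 0.20, 0.28 and 0.41 between arrays of the same number, and at -0.29 to 0.04 between arrays of different numbers. The numbers may thus pair the arrays, but the labels do not say what they mean. With 3 arrays per group the deviations also constrain each other, so these correlations do not establish a pairing. The fit reported has no block. Its p-values and SEs are given unless the block is named or the probe set lies below the brightness limit. Differences within pairs are given beside it. The number of arrays limits the precision. Alternatives were 1 probe set per gene, other brightness filters, quantile normalization, a pseudocount, the array number as a block, leaving out arrays and, chosen after seeing the data, the block with 1 probe set per gene.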

Additional observations from a re-analysis of the deposited data

How the results depend on the processing

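The median log2 difference of the 10 regulators, 0.66, lay between 0.51 and 0.75 when single arrays were left out, and was 0.67 without both arrays numbered 3, 0.66 under quantile normalization and 0.62 with 50 added to each signal. The count of regulators whose groups did not overlap, 6, was 6 to 9 when single arrays were left out, 9 being without control array 3. It was 9 without both arrays numbered 3. Leaving out arrays can only keep or raise such a count. The share of all probe sets was not taken for these settings, so nothing is read from the rise. Of single genes, Ppp1r15a and Cebpg turned direction in 1 of 14 alternatives each and Sesn2 in 4, and the other 7 kept theirs. Alternatives that changed the filter, took 1 probe set per gene or added the block could not move these differences. The 14 are thus not all checks of direction. Trib3 moved by more than its spread between arrays, to 0.98 without both arrays numbered 3. The median of the other ATF4 and CHOP targets, 0.06, ran from 0.02 without control array 2 to 0.12 without control array 3, and was 0.13 without both arrays numbered 3, and the count of targets called was 0 in every alternative.

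Limma called 0 probe sets in the fit reported and 0 with the replicate block, where 1923 passed an unadjusted p of 0.05, against 1180 without the block. With 1 probe set per gene, which tests 10972, 1 gene was called, Acox2, and with the replicate block as well 0 were (smallest adjusted p = 0.0912). The block left the count called at 0 in each of the 14 comparison lists. Leaving out single arrays gave 0 to 1 calls, the 1 being Scd1 without Scap-deleted array 2. The Scap difference, -0.84, was -1.12 to -0.50 when single arrays were left out. The filter on dim probe sets leaves the regulators' values unchanged by construction, since each is given whatever its brightness. Dim probe sets, such as the lowest for Atf4, have no known distance from background.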
